A study of Mus musculus with 23 samples.

Results

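The comparison set hearts of calcineurin transgenic mice (CnATg) against hearts of wild-type mice (WT), both under vehicle at day 45. It used 6 of the 23 libraries of the study, 3 in each group, chosen by their sample titles. All mice were C57BL/6. CnATg mice carry an activated calcineurin A under a myosin heavy chain promoter, so the transgene is driven in heart muscle cells, and the controls lack it. Vehicle was given 3 times per week from week 4 of age. In each library RNA of the heart was measured. In all, 12801 of the 43154 features in the files had 3 or more of the 6 libraries at an FPKM of 1 or above. FPKM, the fragment count scaled for transcript length and for library size, is a level per length that allows genes to be compared within a library. Another 6 day-45 libraries, 3 of CnATg and 3 of WT mice given JIB-04, which inhibits histone demethylases of the Jumonji family, at 50 mg/kg, shared the model fit and served as a separate look at the same genotype difference. Their titles place WT mice under JIB-04, whereas the description of the whole study gives WT mice vehicle only. JIB-04 was also given 3 times per week, from week 4 of age in CnATg mice, while no start week is given for these WT mice. The labels do not say that the libraries came from separate mice, so p-values measure the spread between these samples.

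Calcineurin is a phosphatase switched on by calcium and calmodulin. It strips phosphate from NFAT transcription factors, which then enter the nucleus and act there with partners such as GATA4 and MEF2. In heart muscle cells, sustained calcineurin activity is a well-known driver of hypertrophy that passes into dilation and failure, and the mouse heart's adult gene program then gives way in part to genes of the fetal heart.

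The transgene was visible in every library. Ppp3ca, the calcineurin A alpha gene at chr3:136670124-136937727 (GRCm38), measured 1559, 1720 and 1574 FPKM in the CnATg libraries and 24.5, 29.0 and 25.3 FPKM in the WT libraries. The mean level was 61.6-fold higher, and the log2 difference was 5.89 (95% confidence interval 5.71 to 6.08; adjusted p = 1.1e-12). Reads from the transgene and from the mouse's own gene are counted together here as far as their sequences match. Each log2 difference below is the mean of log2(FPKM + 1) in CnATg minus that in WT, given with its standard error (SE), and understates the change of genes with low levels. Adjusted p-values come from limma over all 12801 genes.

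Some differences between the libraries were not about single genes. Mitochondrially encoded transcripts made up 15.7% to 16.7% of summed FPKM in CnATg and 24.5% to 25.6% in WT, without overlap (exact permutation p = 0.1, the smallest that 3 against 3 libraries can give). Since FPKM is a share of the library, a smaller mitochondrial share raises all other values. Haemoglobin transcripts made up 0.205% to 0.512% in CnATg and 0.318% to 0.407% in WT. The relative depth, estimated from the spacing of low values, was 1.06 to 1.25 of the mean library in CnATg and 0.838 to 0.906 in WT. In each group 1 of the 3 libraries had more Ddx3y than Xist, so both sexes were present in both groups. Log2 values correlated at 0.985 to 0.990 between libraries of a group and at 0.944 to 0.953 across the groups.

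The library of CnATg replicate 1 stood apart in some genes of the atria, the upper chambers. Myl4, an atrial myosin light chain, measured 77.9 FPKM there against 11.9 and 10.1 FPKM in the other CnATg libraries and 2.45 to 2.61 FPKM in WT. Myl7, the other atrial light chain, measured 82.7 FPKM against 4.79 and 4.64 FPKM, and did not pass the test (adjusted p = 0.0624). It was called higher with mitochondrial and haemoglobin genes left out (adjusted p = 0.0414) and without CnATg replicate 2 or 3 (adjusted p = 0.0497 and 0.0484). A limma fit on the 6 vehicle libraries alone (adjusted p = 0.0488) and a fit with the replicate number as a block (adjusted p = 0.0326) also called it. Sln, a calcium pump inhibitor of atrial muscle, measured 36.3 FPKM against 1.15 and 0.448 FPKM, and stood at 0, 0.241 and 0 FPKM in WT. Bmp10, a growth factor of atrial muscle, was listed at 0 in all 6 libraries. Nppa and Hcn4, also on the list of atrial and conduction genes, were highest in CnATg replicate 2 and replicate 3. Of 10 tested atrial and conduction genes, 5 were called higher and 3 lower with the library of CnATg replicate 1, and 3 were called higher and 3 lower without it. Whether it held more atrial tissue was not tested.

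Between the groups, 5156 genes, 40.3% of those tested, passed an adjusted p of 0.05 (limma). Of these, 3066 were higher in CnATg (24% of genes tested) and 2090 were lower (16.3%). The median log2 difference over all genes was 0.07, and the median size of a difference was 0.22. In 50.2% of all genes no CnATg library lay within the WT range. Calls were thus common, and a gene list is read against these shares. Among called genes, 2996 of the 3066 higher and 2027 of the 2090 lower had no overlap between the groups. Lack of overlap therefore adds little to a call, and the rule that picked genes by size of difference required it. Larger differences were rarer. A change of at least 2-fold that passed the test was found in 728 genes (5.69%), 459 higher (3.59%) and 269 lower (2.1%). A change of at least 4-fold was found in 97 genes upward (0.758%) and 34 genes downward (0.266%). The share of calls that were higher, 59.5%, depended on scaling. It was 49% with median-ratio scaling, 45.8% with quantile normalization and 73.5% when mitochondrial and haemoglobin genes were left out before rescaling. The median of all genes itself moved to 0.01, -0.01 and 0.16 under these 3 settings.

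**Figure D1:**
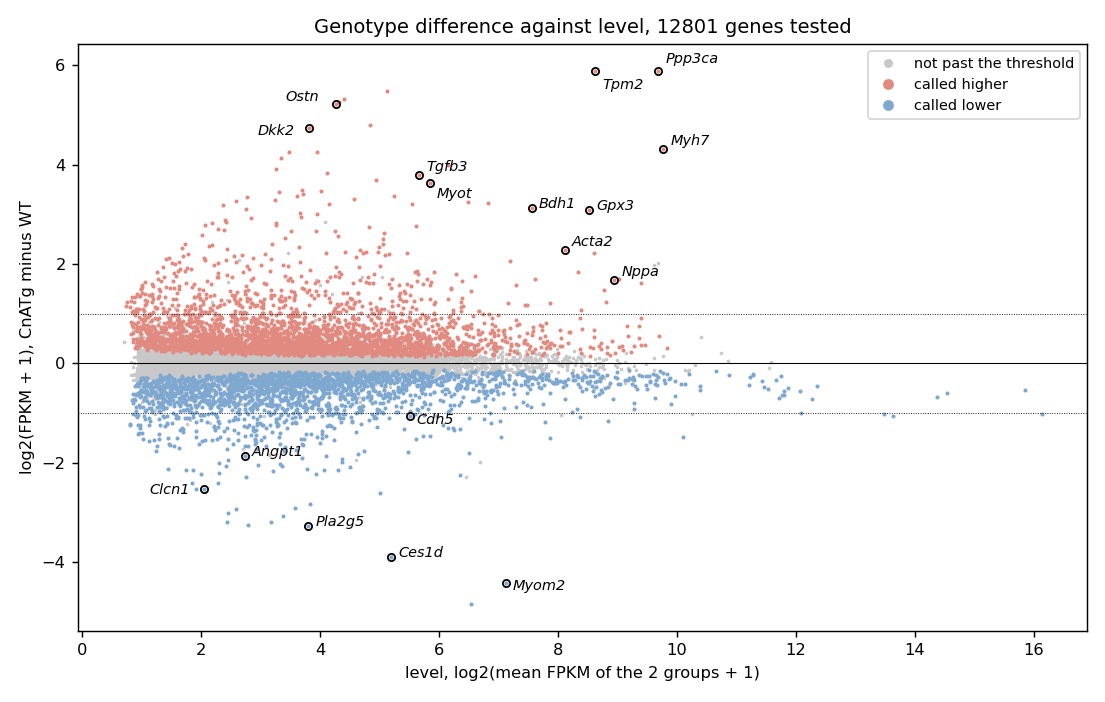
Each point is 1 of the 12801 genes, with the log2 of its mean FPKM + 1 over the 6 libraries on the horizontal axis and the log2 difference, CnATg minus WT, on the vertical axis. Coloured points passed an adjusted p of 0.05, dotted lines mark a 2-fold change, and labelled genes are among those in the text, with Ppp3ca and Tpm2 (both 5.89) highest among the labelled genes and Myom2 (-4.42) lowest.

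Of the genes around calcineurin, the modulators Lmcd1, Rcan1, Rcan2 and Cmya5 were higher, while 2 of the 3 other subunits did not pass the test. Of 4 tested subunit genes, Ppp3ca and Ppp3cc were called higher. Ppp3cc differed by only 0.23, and its call was lost under median-ratio scaling (adjusted p = 0.123), under quantile normalization, and without WT replicate 1 or 3 or CnATg replicate 1 or 3. Ppp3cb (0.06) and Ppp3r1, the regulatory subunit (0.06), did not pass the test. Of 9 tested inhibitors and anchors of calcineurin, 4 were called higher and 2 lower, but the lower count was 0 without WT replicate 1 or 2 and 1 without each of the other libraries, under quantile normalization and with mitochondrial and haemoglobin genes left out. Lmcd1, a LIM protein of the Z-disc that is known to promote calcineurin signalling, measured 77.8, 76.0 and 70.8 FPKM in CnATg and 17.8, 20.3 and 22.3 FPKM in WT (1.85 ± 0.23 (SE), adjusted p = 5.5e-05). Rcan1, a feedback inhibitor made in response to NFAT, measured 93.8, 75.3 and 68.7 FPKM against 24.3, 25.1 and 26.1 FPKM. Rcan2, its relative, measured 213, 193 and 192 FPKM against 114, 124 and 109 FPKM. In all 3 genes every CnATg library lay above every WT library. Cmya5, a large protein that binds calcineurin at the Z-disc, rose by 0.81, while Akap5, which anchors calcineurin and protein kinase A at membranes, fell by 0.83. Of 12 tested NFAT factors and partners, 3 were called higher and 3 lower. Gata4, a zinc-finger factor that works with NFAT, measured 72.7, 69.1 and 77.6 FPKM against 46.7, 45.4 and 50.6 FPKM, also without overlap. Mef2a fell by 0.52 and Nfatc2 by 0.46. Only 1 member of this list was called higher under median-ratio scaling, under quantile normalization or without CnATg replicate 1.

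**Figure D2:**
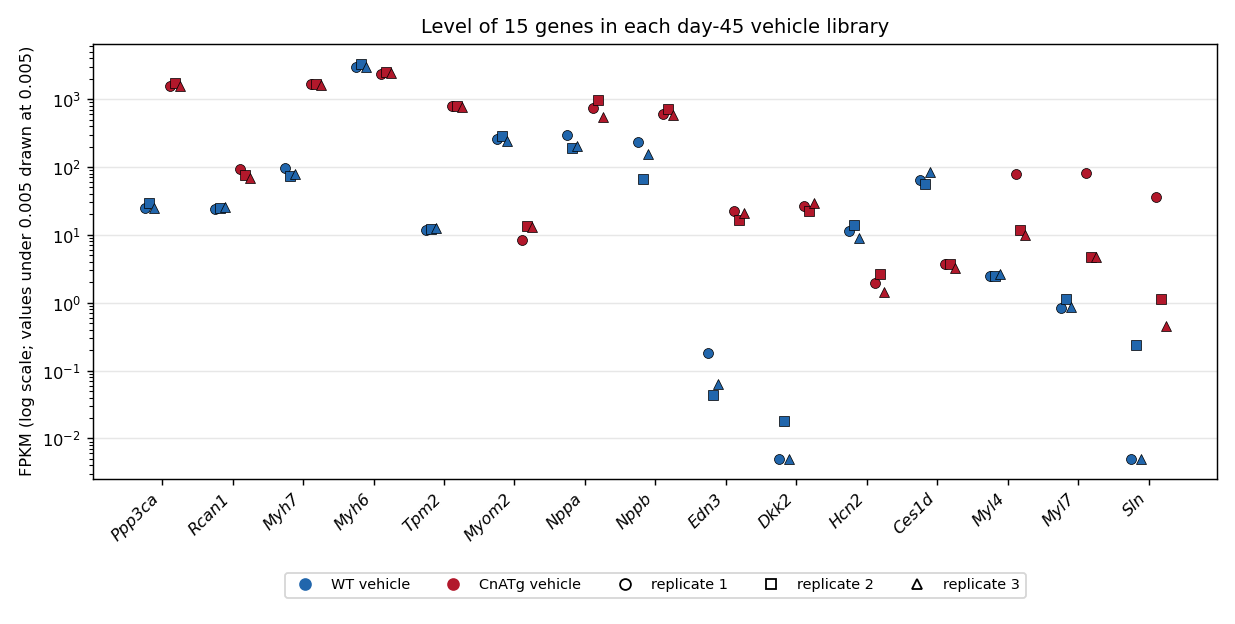
The level of 15 genes in each of the 6 libraries is drawn in FPKM on a log axis, with WT in blue, CnATg in red and the replicate number as the marker shape; values under 0.005 FPKM are drawn at 0.005. Ppp3ca, Tpm2, Edn3 and Dkk2 are far higher in all CnATg libraries, Myom2, Hcn2 and Ces1d far lower, and in Myl4, Myl7 and Sln the library of CnATg replicate 1 is far above the other 2.

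Within the sarcomere, the contractile unit of muscle, Myh7 and Tpm2, which are low in the adult mouse ventricle, were many-fold higher, while the adult chains Myh6, Myl2, Myl3 and Tnni3 fell by far less and lost their calls under quantile normalization. Among 15 tested myosin chains and their kinases, 7 were called higher and 5 lower. Myh7, the slow myosin heavy chain that dominates the fetal mouse ventricle, measured 1651, 1687 and 1638 FPKM in CnATg and 95.7, 72.5 and 79.1 FPKM in WT, 20.1-fold higher (4.32 ± 0.10, adjusted p = 1.3e-10). Myh6, the fast heavy chain of the adult mouse heart, measured 2370, 2479 and 2401 FPKM against 3022, 3324 and 2981 FPKM (-0.36). The groups did not overlap in either gene, but Myh6 lost its call under quantile normalization, where its difference was -0.04. Myl2, the regulatory light chain of the ventricle, measured 2799, 3044 and 2731 FPKM against 3688, 3528 and 3607 FPKM (-0.34), and Myl3, its essential light chain, measured 2254, 2419 and 2185 FPKM against 2690, 2624 and 2724 FPKM (-0.23). No CnATg library reached the WT range in Myl2 or Myl3, but neither kept its call under quantile normalization, where the differences were 0.14 and -0.08. Myl3 also lost it with mitochondrial and haemoglobin genes left out (adjusted p = 0.183) and without CnATg replicate 3 (adjusted p = 0.0583). Of the summed FPKM of Myh6, Myh7 and Myh7b, Myh7 took 40.2%, 39.8% and 39.4% in CnATg and 3.01%, 2.11% and 2.54% in WT. Myh6 and Myh7 are close in sequence, and how the authors' counting split reads between them is not given in the sources used here. Myl1, a fast light chain, rose by 1.20, and Mylk4 (0.81) and Myh7b (0.74) also rose. Mybpc2, the fast skeletal myosin-binding protein C, fell by 1.14, whereas Mybpc3, the cardiac form, rose by 0.32. The number of lower myosin genes was 3 under quantile normalization.

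The start sites of some of these genes are printed here, since the listed promoters of the myosin pair and of Nppb, a fetal heart gene described further on, hold known letters of heart promoters and that of Tpm2 holds none. They are the 250 bases before and 50 bases after the start in RefSeq (GRCm38.p6), 5′ to 3′ on the gene's strand. Capitals mark a match on either strand to CATTCC (the M-CAT element bound by TEAD factors), GGAAA (the core bound by NFAT factors), TATAAA (the letters of the TATA box) or AGATAA (bound by the protein that Gata4 encodes).
Myh6 (chr14:54966558-54966857, minus strand): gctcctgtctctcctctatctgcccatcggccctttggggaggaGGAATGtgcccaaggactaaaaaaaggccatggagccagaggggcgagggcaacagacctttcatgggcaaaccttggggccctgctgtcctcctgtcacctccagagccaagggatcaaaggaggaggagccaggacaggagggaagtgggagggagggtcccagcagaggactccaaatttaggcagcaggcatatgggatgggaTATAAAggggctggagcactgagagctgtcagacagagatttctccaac
Myh7 (chr14:54994577-54994876, minus strand): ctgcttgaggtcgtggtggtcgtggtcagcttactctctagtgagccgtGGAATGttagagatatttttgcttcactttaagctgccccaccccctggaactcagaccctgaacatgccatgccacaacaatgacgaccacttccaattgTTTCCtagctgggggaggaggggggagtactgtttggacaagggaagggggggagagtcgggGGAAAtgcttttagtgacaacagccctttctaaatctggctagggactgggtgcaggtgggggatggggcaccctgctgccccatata
Nppb (chr4:147985650-147985949, plus strand): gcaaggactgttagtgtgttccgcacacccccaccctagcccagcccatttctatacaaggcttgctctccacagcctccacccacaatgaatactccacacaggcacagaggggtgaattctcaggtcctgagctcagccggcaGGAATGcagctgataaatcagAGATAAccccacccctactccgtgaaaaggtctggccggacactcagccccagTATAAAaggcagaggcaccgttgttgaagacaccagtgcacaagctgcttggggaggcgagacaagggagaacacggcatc
Tpm2 (chr4:43523505-43523804, minus strand): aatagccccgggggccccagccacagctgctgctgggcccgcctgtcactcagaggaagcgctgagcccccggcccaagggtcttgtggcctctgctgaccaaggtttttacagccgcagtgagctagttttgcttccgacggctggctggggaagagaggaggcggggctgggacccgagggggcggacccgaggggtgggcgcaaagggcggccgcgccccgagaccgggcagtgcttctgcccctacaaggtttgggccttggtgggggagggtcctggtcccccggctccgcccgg
CATTCC occurred on the opposite strand in Myh6, Myh7 and Nppb, at positions -206, -201 and -105 from the listed start. TATAAA occurred on the same strand at position 2 in Myh6, after the listed start, and at -31 in Nppb, before it. GGAAA occurred only in Myh7 among the 4, at -100 on the opposite strand and at -38 on the same strand. Of 8945 tested genes with a RefSeq promoter, 12% held CATTCC, 58.8% GGAAA, 6.92% TATAAA and 6.2% AGATAA on either strand. Among the 64 promoters of genes at least 4-fold higher, the shares were 15.6%, 53.1%, 18.8% and 4.69%. Among the 19 promoters of genes at least 4-fold lower they were 15.8%, 52.6%, 15.8% and 5.26%. A match is a description of letters, not a site.

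Thin-filament genes were split as well, with 7 of 18 tested actin, tropomyosin and troponin genes called higher and 7 lower. Tpm2, beta-tropomyosin of slow and embryonic muscle, measured 783, 795 and 757 FPKM in CnATg and 11.6, 12.3 and 12.5 FPKM in WT, 64.2-fold higher (5.89 ± 0.05, adjusted p = 6.3e-15). Its share of tropomyosin FPKM was 24.8% in CnATg and 0.44% in WT on average. Acta2, the smooth muscle actin that fetal heart muscle also makes, measured 415, 487 and 461 FPKM against 80.2, 134 and 72.6 FPKM. Tnni1 and Tnnt1, the slow skeletal troponins I and T, rose by 1.70 and 1.52, to 2.38 to 3.05 FPKM and 41.9 to 62.8 FPKM in CnATg. The groups did not overlap in any of these genes, but Tnni1 passed the level filter through CnATg alone and so had to differ. The fast troponin Tnni2 fell by 1.24. Tmod4, a skeletal tropomodulin that caps thin filaments, measured 1.92, 1.05 and 0.988 FPKM against 10.4, 8.5 and 11.5 FPKM. Tropomyosins Tpm3 and Tpm4 fell by 0.44 and 0.64. Among the main cardiac forms, Tnni3, cardiac troponin I, measured 1981, 2127 and 1976 FPKM against 2764, 2586 and 2810 FPKM (-0.42), whereas Actc1 (0.03), Tnnt2 (-0.09) and Tnnc1 (0.21) did not pass the test. Under quantile normalization Tnni3 lost its call (-0.21, adjusted p = 0.22), and Actc1 and Tnnt2 were called higher (0.44 and 0.30). Tnnc1 was called higher with mitochondrial and haemoglobin genes left out (0.31, adjusted p = 0.016) and without WT replicate 1 (0.26, adjusted p = 0.0257).

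Genes of the Z-disc and M-band, which anchor the thin and thick filaments, were mostly higher. Of 36 tested, 23 were called higher and 6 lower, against 24% and 16.3% of all genes, with a median log2 difference of 0.41. When mitochondrial and haemoglobin genes were left out before rescaling, 1 was lower. Myot, myotilin of the Z-disc, measured 123, 100.5 and 91.9 FPKM in CnATg and 7.19, 6.76 and 8.77 FPKM in WT, 13.9-fold higher (3.63 ± 0.17, adjusted p = 4e-08). Fhl1, a LIM protein that binds titin, measured 256, 206 and 246 FPKM against 60.0, 55.6 and 50.9 FPKM. Ankrd1, a stretch-responsive titin partner, measured 1005, 1075 and 928 FPKM against 404, 235 and 369 FPKM. All 3 genes were higher in every CnATg library than in any WT library. The LIM-domain scaffolds Pdlim3 (1.77) and Pdlim5 (1.23), the actin cross-linker Synpo2l (1.33), the chaperone partner Bag3 (1.17) and filamin C, Flnc (0.94), also rose. In the M-band the direction was split between relatives. Myom2, a myomesin of adult muscle, measured 8.38, 13.4 and 13.0 FPKM against 262, 289 and 242 FPKM, 22.8-fold lower (-4.42 ± 0.14, adjusted p = 1.1e-09). Myom1, its relative, measured 314, 301 and 283 FPKM against 221, 256 and 227 FPKM, and Myom3 measured 2.43, 1.87 and 2.66 FPKM against 1.20, 1.27 and 1.83 FPKM. Both of these were higher in every CnATg library, though Myom3 lost its call without WT replicate 1 (adjusted p = 0.0503) or CnATg replicate 3 (adjusted p = 0.0563). Myom2 made up 52.8% of summed myomesin FPKM in WT and 3.72% in CnATg. Titin itself, Ttn (0.20), did not pass the test, and Csrp3 (-0.34) and Fhl2 (-0.40), LIM proteins of the sarcomere, fell, but not past the threshold with mitochondrial and haemoglobin genes left out (adjusted p = 0.102 and 0.0583).

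**Figure D3:**
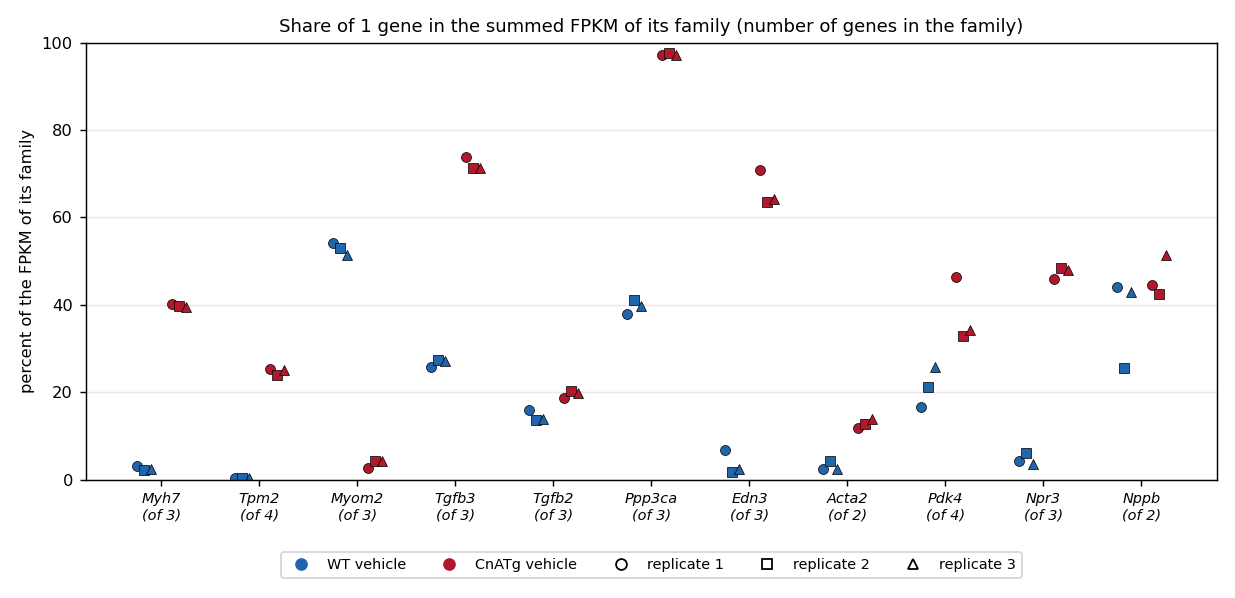
The share of a gene in the summed FPKM of its family is drawn in percent for the genes named on the horizontal axis, with 1 point per library, WT in blue and CnATg in red. Myh7, Tpm2, Edn3 and Npr3 take a larger share in all CnATg libraries and Myom2 a smaller one.

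At the contacts between heart muscle cells, genes moved in both directions. Of 19 tested genes of the intercalated disc and gap junctions, 6 were called higher and 8 lower. The lower count was 4 without CnATg replicate 1 and 3 with mitochondrial and haemoglobin genes left out. Pkp2, plakophilin 2 of desmosomes, measured 121, 113 and 109 FPKM in CnATg and 45.3, 50.7 and 47.2 FPKM in WT (1.25 ± 0.07, adjusted p = 8.6e-08). Dsg2, the desmosomal cadherin desmoglein 2, measured 8.67, 6.79 and 8.90 FPKM against 21.1, 27.5 and 23.8 FPKM (-1.46 ± 0.12). These desmosome partners thus lay apart in opposite directions, without overlap. Dsc2, the companion cadherin desmocollin 2, fell by 0.73, while plakoglobin, Jup (0.08), desmoplakin, Dsp (-0.05), and connexin 43, Gja1 (-0.34), did not pass the test. Cdh2, N-cadherin of the adherens junction, rose by 0.49.

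The dystrophin complex ties the sarcomere through the membrane to the matrix. Of 31 tested genes of this complex, the costamere and the cytoskeleton, 12 were called higher and 4 lower, with a median of 0.20. Dmd, dystrophin, measured 69.7, 63.5 and 71.4 FPKM in CnATg and 21.4, 24.0 and 22.0 FPKM in WT (1.56 ± 0.08, adjusted p = 9.8e-08). Sntb1, beta-1 syntrophin, measured 13.1, 9.64 and 12.4 FPKM against 2.62, 2.04 and 2.01 FPKM. Both genes were higher in every CnATg library. Delta-sarcoglycan, Sgcd (1.37), and dystroglycan, Dag1 (0.40), rose. Utrophin, Utrn (-0.06), and alpha-sarcoglycan, Sgca (0.14), did not pass the test. Nes, the intermediate filament nestin, fell by 1.38.

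Among channels that carry sodium, chloride and pacemaker current, 7 of 18 tested were called higher and 6 lower. Pacemaker channels, which carry the current that sets the rate of the sinus node, parted. Hcn2 measured 1.95, 2.63 and 1.45 FPKM in CnATg and 11.6, 13.9 and 8.86 FPKM in WT (-2.04). Hcn4, the form of the sinus node and the fetal ventricle, measured 5.85, 5.52 and 8.20 FPKM against 2.81, 2.65 and 2.94 FPKM (0.97). The groups did not overlap in either gene. Scn4a, the skeletal muscle sodium channel, measured 11.5, 10.1 and 15.8 FPKM against 4.68, 5.32 and 6.86 FPKM. Scn4b, an auxiliary sodium channel subunit, measured 14.9, 14.3 and 17.1 FPKM against 3.16, 3.92 and 4.55 FPKM. Both were higher in every CnATg library. Clcn1, the chloride channel of skeletal muscle, measured 0.261, 0.171 and 0.209 FPKM against 5.10, 5.56 and 7.46 FPKM. Clcn1 passed the level filter through WT alone and so had to differ. Atp1b1, a subunit of the sodium pump, rose by 0.62.

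Calcium handling showed no common direction, with 10 of 33 tested genes called higher and 10 lower. The lower count was 6 with mitochondrial and haemoglobin genes left out. Casq1, the skeletal calsequestrin that stores calcium in the sarcoplasmic reticulum, measured 71.3, 39.2 and 54.6 FPKM in CnATg and 10.3, 7.53 and 10.4 FPKM in WT (2.40 ± 0.26, adjusted p = 2.4e-05). Cacna1g, a T-type calcium channel of the fetal heart, measured 23.4, 29.0 and 37.3 FPKM against 13.1, 10.4 and 12.6 FPKM. Slc8a1, the sodium-calcium exchanger, measured 95.5, 85.3 and 79.2 FPKM against 45.2, 56.7 and 53.3 FPKM. These 3 genes were higher in every CnATg library. Atp2a2, the calcium pump SERCA2, measured 1756, 1809 and 1627 FPKM against 1943, 2134 and 1992 FPKM (-0.23). That small difference lost its call without WT replicate 2 (adjusted p = 0.057), without CnATg replicate 3 (adjusted p = 0.0737) and under both quantile normalization and the removal of mitochondrial and haemoglobin genes. Pln, the inhibitor phospholamban of this pump, fell by 0.44. S100a1, a calcium sensor that aids the pump, fell by 0.58, and Camk2a, a calcium-dependent kinase, fell by 1.10, while Camk2d, the main cardiac form of the kinase, rose by 0.51. The release channel Ryr2 (0.04) did not pass the test.

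Receptors and G proteins of adrenergic and muscarinic signalling, which set rate and force, had 6 of 25 tested genes called higher and 8 lower. The lower count was 5 with mitochondrial and haemoglobin genes left out. Grk5, a kinase that shuts off these receptors and is also known to act in the nucleus, at chr19:60889749-61092553, measured 41.3, 44.0 and 42.1 FPKM in CnATg and 8.13, 9.37 and 7.51 FPKM in WT, 5.09-fold higher (2.22 ± 0.08, adjusted p = 3.1e-09). Adra1a, the alpha-1A adrenergic receptor, measured 14.4, 13.0 and 12.8 FPKM against 4.19, 5.41 and 5.65 FPKM. Both were higher in all CnATg libraries, while the beta receptor Adrb1 (0.00) did not pass the test. The muscarinic receptor Chrm2 (0.61), adenylyl cyclase 5, Adcy5 (0.64), and Gnas, the stimulatory G protein (0.56), rose. Adenosine receptor Adora1 (-1.14) and the G-protein brakes Rgs7 (-1.40), Rgs5 (-0.86) and Rgs4 (-0.68) fell.

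Downstream of cyclic nucleotides, 11 of 30 tested phosphodiesterases, protein kinase A subunits and anchors, and phosphatase 1 regulators were called higher and 11 lower. Ppp1r1c, an inhibitor of phosphatase 1 related to DARPP-32, measured 34.0, 41.2 and 38.6 FPKM in CnATg and 0.0175, 0.000693 and 0.0253 FPKM in WT (5.26 ± 0.12, adjusted p = 9.4e-11). Pde1c, a phosphodiesterase switched on by calmodulin, measured 0.387, 0.344 and 0.411 FPKM in CnATg and 8.97, 10.1 and 9.70 FPKM in WT (-2.94 ± 0.07, adjusted p = 1.4e-10). Such genes passed the level filter through 1 group only and so had to differ. Of 229 genes that reached 1 FPKM in CnATg libraries alone, 212 were called, and of 160 that did so in WT alone, 140 were called. The cAMP-specific Pde7a measured 45.6, 31.3 and 36.7 FPKM against 12.5, 9.35 and 11.4 FPKM, and its relative Pde7b rose by 1.19. Pde3a (-0.76), Pde4d (-0.51) and Pde2a (-0.50) fell. Ppp1r14c, another phosphatase 1 inhibitor, measured 39.8, 43.4 and 43.5 FPKM against 107, 96.6 and 114 FPKM. Akap6, which anchors protein kinase A and calcineurin at the nuclear envelope, rose by 1.00.

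Natriuretic peptides are hormones that the strained heart releases to lower blood pressure and volume, and endothelins are peptides that constrict vessels. Of 15 tested genes of these systems, 8 were called higher and 2 lower, with a median log2 difference of 1.57 against 0.07 over all genes. Nppa and Nppb, the 2 peptide genes, measured 741, 960 and 548 FPKM against 296, 192 and 205 FPKM and 597, 708 and 580 FPKM against 232, 66.4 and 154 FPKM. The WT libraries varied widely in Nppb but did not reach the CnATg range. Ostn, osteocrin or musclin, a peptide that binds the clearance receptor, at chr16:27307489-27351212, measured 45.1, 34.5 and 30.3 FPKM in CnATg and at most 0.00139 FPKM in WT (5.21). Npr3, that clearance receptor, measured 27.9, 29.5 and 28.2 FPKM against 1.69, 2.11 and 1.28 FPKM, 16.9-fold higher (3.47 ± 0.14, adjusted p = 1e-08). Npr1, the signalling receptor (-0.72), and Corin, the protease that matures the peptides (-0.73), fell. Among endothelins, Edn3 at chr2:174760619-174784042 measured 22.6, 16.5 and 21.3 FPKM against 0.182, 0.0432 and 0.0629 FPKM (4.26 ± 0.13, adjusted p = 1.1e-09). Edn1 measured 9.25, 9.45 and 11.9 FPKM against 2.47, 2.29 and 2.43 FPKM, and the receptor Ednra measured 42.0, 42.9 and 51.6 FPKM against 15.3, 11.2 and 10.7 FPKM. All 3 were higher in each CnATg library, though Edn3, like Ostn, passed the level filter through CnATg alone and so had to differ. The other receptor, Ednrb (-0.22), and the converting enzyme Ece1 (0.60) did not pass the test.

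Of 16 tested genes of the renin-angiotensin system and of peptides that act on vessels, 2 were called higher and 8 lower, with a median of -0.42. Those called higher were Ace and Nr3c2, and those called lower included genes of vessel-relaxing peptides as well as angiotensinogen. Ace, which makes angiotensin II, measured 35.2, 26.2 and 28.6 FPKM in CnATg and 13.0, 11.4 and 14.6 FPKM in WT (1.14). Apln, the vessel-relaxing peptide apelin, measured 0.642, 1.87 and 1.26 FPKM against 5.80, 7.72 and 9.28 FPKM. Ramp1, a subunit of the receptor for the vessel-relaxing peptide CGRP, measured 0.424, 0.528 and 0.498 FPKM against 10.2, 4.52 and 6.87 FPKM. Ace was thus above, and Apln and Ramp1 below, the WT range in every CnATg library. Ramp1 passed the level filter through WT alone and so had to differ. The apelin receptor Aplnr (-1.5) and angiotensinogen, Agt (-0.73), fell.

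In TGF-beta signalling, several ligands and targets were higher, while Tgfbr1 and Tgfbr2 did not pass the test. Of 33 tested genes of the TGF-beta, BMP and activin family, 15 were called higher and 4 lower, with a median of 0.20. Without WT replicate 1 or CnATg replicate 1, or with mitochondrial and haemoglobin genes left out, 2 were lower. Tgfb3, at chr12:86056744-86079041, measured 111, 86.1 and 82.8 FPKM in CnATg and 5.17, 5.88 and 6.26 FPKM in WT, 16.2-fold higher (3.79 ± 0.13, adjusted p = 1.7e-09). Tgfb2 measured 28.2, 24.5 and 23.2 FPKM against 3.19, 2.95 and 3.21 FPKM. Tgfb1 (-0.25) did not pass the test, but was called lower under median-ratio scaling (-0.31, adjusted p = 0.0431) and under quantile normalization (-0.31, adjusted p = 0.0408). Tgfb3 made up 72.2% of the FPKM of the 3 ligands in CnATg and 26.7% in WT. Targets of the pathway were higher as well. Ctgf, connective tissue growth factor, measured 195, 234 and 181 FPKM against 20.5, 25 and 17.5 FPKM, and Cyr61, a relative of it, rose by 1.80. The receptors Tgfbr1 and Tgfbr2 differed by 0.08 and 0.13, with Tgfbr2 called higher without WT replicate 2 (0.21), and the co-receptor Tgfbr3 fell by 0.56. Fst, the activin trap follistatin, measured 7.43, 5.36 and 8.05 FPKM against 0.0822, 0.0592 and 0.173 FPKM. Fst passed the level filter through CnATg alone and so had to differ.

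In the Wnt pathway, which heart muscle uses mainly in development, 13 of 25 tested genes were called higher and 5 lower, with a median of 0.27. With mitochondrial and haemoglobin genes left out, 1 was lower, and without WT replicate 1 or 2 or CnATg replicate 1 or 3, 3 were lower. Dkk2, a secreted Wnt antagonist at chr3:132085292-132180293, measured 26.3, 22.2 and 29.3 FPKM in CnATg and 0, 0.0182 and 0 FPKM in WT (4.73). Ror2, a receptor kinase for Wnt5a, measured 29.0, 27.2 and 28.2 FPKM against 0.508, 0.577 and 0.519 FPKM (4.25). Fzd9, a frizzled receptor outside the list, measured 16.5, 17.1 and 17.6 FPKM against 0.561, 0.753 and 0.675 FPKM. In each of them WT libraries were below 1 FPKM, so these genes passed the level filter through CnATg alone and had to differ. The secreted antagonists Sfrp2 (2.17), Dkk3 (2.02), Sfrp1 (1.86) and Frzb (1.60) rose, while the ligand Wnt11 (-0.82) fell.

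Other growth factor genes had 17 of 38 tested called higher and 7 lower, with a median of 0.20. Hbegf, a ligand of EGF receptors, measured 59.0, 49.7 and 57.6 FPKM in CnATg and 9.77, 8.37 and 8.45 FPKM in WT (2.51 ± 0.08, adjusted p = 1.1e-09). Fgfr1, a receptor for fibroblast growth factors, measured 40.5, 38.8 and 41.7 FPKM against 14.5, 11.9 and 10.7 FPKM. Bdnf, a neurotrophin, measured 11.0, 9.0 and 9.51 FPKM against 1.42, 2.26 and 1.71 FPKM. The CnATg libraries lay above all WT libraries in these genes. Igf1 (0.77) and its receptor Igf1r (0.73) rose, whereas Igf2, the fetal insulin-like growth factor, measured 4.74, 3.41 and 6.44 FPKM against 14.3, 13.2 and 10.4 FPKM (-1.24).

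Genes of blood vessel growth were largely lower. Of 36 tested angiogenic and Notch genes, 2 were called higher and 22 lower, with a median of -0.51. The higher count was 0 without any 1 of the CnATg replicates, and 1 without WT replicate 2 or 3, under median-ratio scaling and under quantile normalization. Angpt1, which steadies vessels through the receptor TIE2, at chr15:42424727-42676977, measured 1.94, 1.63 and 2.00 FPKM in CnATg and 7.83, 11.3 and 9.22 FPKM in WT, 5.09-fold lower (-1.86 ± 0.15, adjusted p = 3e-06). Vegfa, the main endothelial growth factor, measured 118, 149 and 162 FPKM against 228, 196 and 217 FPKM (-0.59), and Vegfb measured 159, 154 and 143 FPKM against 227, 205 and 217 FPKM (-0.50). No CnATg library reached the WT range in these ligands. The VEGF co-receptors Nrp1 (-0.99) and Nrp2 (-1.09), placental growth factor, Pgf (-1.10), and the Notch ligand Dll4 (-0.78) also fell. Sema3a, a guidance cue that repels endothelial cells, rose by 1.5, and Hif1a (0.17) and Vegfc (0.22) did not pass the test. Hif1a was called higher with mitochondrial and haemoglobin genes left out (0.28, adjusted p = 0.0345).

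The markers of endothelial cells, a list that shares Tie1, Tek, Kdr and Flt1 with the angiogenic list, lay lower too. Of 16 tested, none was called higher and 15 were called lower, with a median of -0.69, and their summed level was 302 to 373 FPKM in CnATg and 525 to 582 FPKM in WT. Cdh5, the cadherin of endothelial junctions, measured 26.4, 30.6 and 28.2 FPKM against 58.8, 63.4 and 58.9 FPKM, Erg, an endothelial transcription factor, fell by 1.08, and Vwf (0.55) did not pass the test. In bulk RNA, fewer cells of a type and less RNA per cell cannot be told apart. Car4, a capillary carbonic anhydrase, measured 4.84, 3.91 and 3.35 FPKM against 16.9, 14.7 and 13.9 FPKM. Aqp1 (-1.0) and Gpihbp1 (-0.84), which carries lipoprotein lipase across capillaries, fell. With Car4 they belong to 19 tested capillary, arterial, venous and lymphatic endothelial markers, of which 5 were called higher and 8 lower. Those called higher were Mmrn1, Pdpn, Fbln5, Prox1 and Plvap. Of 13 tested smooth muscle and pericyte markers, 3 were called higher (Acta2, Cspg4 and Des) and 7 lower, with a median of -0.52. Vtn (-1.52) and Kcnj8 (-0.91) of pericytes fell, and Tagln (-0.20) and Myh11 (-0.32) of smooth muscle did not pass the test. Fibroblast markers ran the other way, with 11 of 16 called higher and 3 lower, and summed to 1309 to 1443 FPKM against 848 to 981 FPKM. Of 19 tested macrophage markers, 5 were called higher and 3 lower, but the higher count was 1 without CnATg replicate 1, 2 without CnATg replicate 3, and 3 without WT replicate 2 or 3 or CnATg replicate 2, and the lower count 1 without WT replicate 1 or with mitochondrial and haemoglobin genes left out. How far these cell-type shares move with the gene lists above was not tested.

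**Figure D4:**
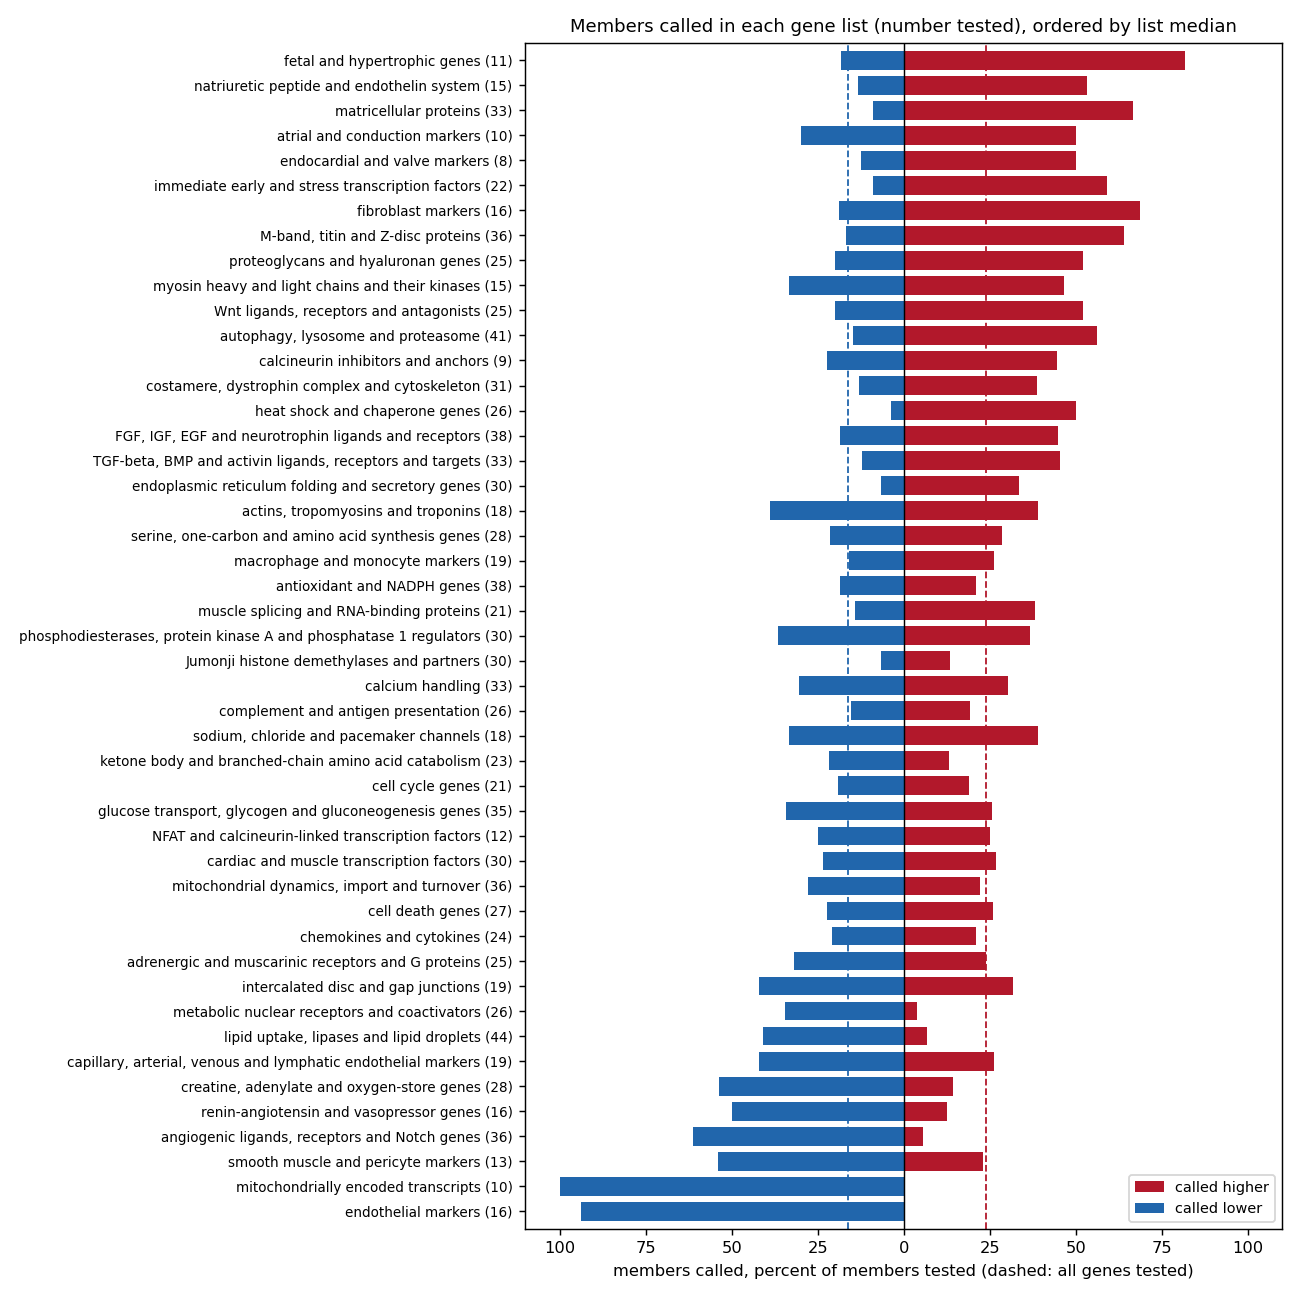
For each gene list with at least 8 tested members, bars give the percent of tested members called higher (red, right) and lower (blue, left) in CnATg, ordered by list median. Dashed lines mark the shares over all genes, 24% higher and 16.3% lower. The natriuretic and endothelin list is near one end, with 8 of 15 higher, and endothelial markers are at the other, with 15 of 16 lower; of the 10 mitochondrially encoded transcripts all were lower, or 1 under quantile normalization.

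Matrix-modifying proteins of the space between cells were largely higher. Of 33 tested matricellular genes, 22 were called higher and 3 lower, with a median of 0.71. Without any 1 of the WT replicates, 1 was lower. Comp (2.31), Cilp (2.83) and Thbs4 (1.65), matrix proteins of cartilage and tendon, rose, as did Postn, periostin of activated fibroblasts (1.29). Spp1, osteopontin, measured 15, 5.05 and 14.2 FPKM in CnATg and 0.0490, 0.107 and 0.207 FPKM in WT. Spp1 passed the level filter through CnATg alone and so had to differ. Emilin2, an elastic-fibre protein, went down, with 5.63, 5.05 and 8.60 FPKM against 31.6, 23.5 and 22.3 FPKM (-1.87). Fibronectin, Fn1 (0.56), did not pass the test, but was called higher with mitochondrial and haemoglobin genes left out (0.66, adjusted p = 0.0282). Of 25 tested proteoglycan and hyaluronan genes, 13 were called higher and 5 lower. Aspn, asporin, measured 55.4, 57.0 and 60.3 FPKM against 11.5, 12 and 11.8 FPKM (2.2 ± 0.08, adjusted p = 5.4e-09), and Bgn, biglycan, measured 219, 245 and 238 FPKM against 82.5, 80.1 and 70.5 FPKM. The cell-surface glypicans Gpc1 (-0.92) and Gpc4 (-0.80) fell.

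Genes of fuel use included some of the largest changes in the heart. Of 35 tested genes of glucose transport, glycogen and gluconeogenesis, 9 were called higher and 12 lower. The lower count was 7 with mitochondrial and haemoglobin genes left out. Glycogen phosphorylase kinase, which starts glycogen breakdown, changed in subunits. Its regulatory subunit Phka1 measured 43.8, 40.6 and 47.0 FPKM in CnATg and 9.22, 8.46 and 7.80 FPKM in WT (2.24). Its muscle catalytic subunit Phkg1 measured 1.39, 1.40 and 0.857 FPKM against 15.9, 18.5 and 17.9 FPKM (-3.07 ± 0.13, adjusted p = 1.5e-08). The groups did not overlap in either. Fbp2, muscle fructose bisphosphatase, measured 1.81, 1.14 and 2.51 FPKM against 20.6, 15.9 and 23.7 FPKM. Hexokinases trap glucose in the cell. Hk1, the form of fetal heart and brain, measured 100.3, 103 and 98.5 FPKM against 45.9, 53.2 and 43.9 FPKM. The insulin-responsive transporter Slc2a4 fell by 0.41, and Slc2a1, the basal one, did not pass the test (0.32) unless WT replicate 2 was left out (0.47).

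Genes of lipid uptake, lipases and lipid droplets were more often lower, with 3 of 44 tested called higher, 18 lower and a median of -0.20. With mitochondrial and haemoglobin genes left out, or without WT replicate 1, 5 were higher. Ces1d, a carboxylesterase that acts on triglycerides, at chr8:93166068-93197838, measured 3.77, 3.66 and 3.21 FPKM in CnATg and 63.5, 56.0 and 83.1 FPKM in WT, 19.1-fold lower (-3.90 ± 0.19, adjusted p = 3.7e-08). Pla2g5, a secreted phospholipase, measured 1.57, 1.76 and 1.52 FPKM against 24.8, 24.7 and 22.8 FPKM. Plin3, a coat protein of lipid droplets, measured 18.3, 18.7 and 20.2 FPKM against 72.4, 72.5 and 60.7 FPKM. Each was lower in every CnATg library. Lpl, the lipase that frees fatty acids from lipoproteins, fell by 0.70, and Dgat2, which makes triglycerides, fell by 0.88.

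Ketone bodies are an alternative fuel of the heart. Bdh1, the first enzyme of ketone oxidation, at chr16:31422280-31458901, measured 347, 325 and 338 FPKM in CnATg and 34.3, 43.6 and 36.3 FPKM in WT, 8.85-fold higher (3.12 ± 0.10, adjusted p = 1.1e-09). The next enzyme, Oxct1 (-0.13), did not pass the test, but was called lower under median-ratio scaling (-0.19, adjusted p = 0.0346). Over the 23 tested genes of ketone and branched-chain amino acid use, 3 were called higher and 5 lower, or 2 lower with mitochondrial and haemoglobin genes left out. Of 38 tested antioxidant and NADPH genes, 8 were called higher and 7 lower. Gpx3, the secreted glutathione peroxidase, at chr11:54902453-54910377, measured 675, 636 and 653 FPKM against 78.4, 74.4 and 75 FPKM, 8.62-fold higher (3.09 ± 0.05, adjusted p = 1.1e-12), and Nqo1, a quinone reductase, measured 79.2, 83.8 and 78.3 FPKM against 30.9, 31.2 and 35.1 FPKM. Both were above WT in all CnATg libraries, whereas Sod2, the mitochondrial superoxide dismutase, fell by 0.47. The lower count was 11 under quantile normalization and 4 without CnATg replicate 3, and the higher count 13 with mitochondrial and haemoglobin genes left out. Of 28 tested creatine, adenylate and oxygen-store genes, 4 were called higher and 15 lower, or 7 lower with mitochondrial and haemoglobin genes left out. Ckm, muscle creatine kinase, measured 781, 776 and 791 FPKM against 1215, 1254 and 1211 FPKM, and Nmrk2, a nicotinamide riboside kinase that feeds NAD synthesis, measured 31.8, 31.3 and 30.2 FPKM against 3.01, 2.05 and 2.37 FPKM. Gpt, alanine aminotransferase, measured 4.48, 3.46 and 4.49 FPKM against 21.7, 20.0 and 22.3 FPKM (-2.12), while Slc38a2, an amino acid importer (0.80), and Glul, glutamine synthetase (0.74), rose.

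Among 30 tested cardiac and muscle transcription factors, 8 were called higher and 7 lower. Hand2, a factor of the embryonic right ventricle, measured 63.0, 48.8 and 57.9 FPKM in CnATg and 25.2, 29.7 and 22.3 FPKM in WT (1.11). Hopx, a homeodomain-only cofactor of heart muscle, measured 123, 139 and 143 FPKM against 329, 269 and 318 FPKM (-1.17). The groups did not overlap in either gene. Of 22 tested immediate early and stress factors, 13 were called higher and 2 lower, with a median of 0.54. The lower count was 1 with mitochondrial and haemoglobin genes left out and without WT replicate 2 or 3 or CnATg replicate 1 or 3. Atf3 measured 11.0, 6.4 and 12.5 FPKM against 2.58, 2.24 and 2.17 FPKM, and Myc (0.94) and Jun (0.68) rose, while Fos (0.27) did not pass the test. Of 30 tested Jumonji demethylases and partners, the family that JIB-04 inhibits, 4 were called higher, 2 lower and 24 neither. Under median-ratio scaling and under quantile normalization the counts were 2 higher and 4 lower, and without WT replicate 3 or CnATg replicate 1 they were 2 higher and 1 lower. With mitochondrial and haemoglobin genes left out none was lower, and without WT replicate 1 or CnATg replicate 2, 1 was. Kdm5a rose by 0.32. Kdm6b fell by 0.35, but missed the threshold with mitochondrial and haemoglobin genes left out (adjusted p = 0.068).

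Genes of protein upkeep were raised in part. Of 26 tested heat shock and chaperone genes, 13 were called higher and 1 lower, with 3 lower under median-ratio scaling, 2 under quantile normalization, and none with mitochondrial and haemoglobin genes left out or without WT replicate 1 or 3 or CnATg replicate 2. Hspb6, a small heat shock protein of muscle, measured 941, 861 and 840 FPKM in CnATg and 506, 412 and 480 FPKM in WT. The inducible Hspa1a and Hspa1b rose by 1.75 and 1.90, though reads of these near-identical copies may be split between them. Of 41 tested autophagy, lysosome and proteasome genes, 23 were called higher and 6 lower. Atg13, which helps start autophagy, measured 70.5, 62.3 and 63.2 FPKM against 21.8, 22.4 and 18.8 FPKM (1.59), and Fbxo40, a ubiquitin ligase subunit of muscle, measured 114, 116 and 109 FPKM against 50.9, 51.9 and 50.7 FPKM. Asb15, a subunit of another muscle ubiquitin ligase, measured 6.98, 7.75 and 6.25 FPKM against 22.3, 24.3 and 22.6 FPKM. In all 3 the groups lay apart. Fbxo32, atrogin-1, rose by 0.94, and its companion Trim63 (-0.07) did not pass the test. Of 21 tested splicing and RNA-binding proteins of muscle, 8 were called higher and 3 lower, or 1 lower with mitochondrial and haemoglobin genes left out; Rbfox1, a splicing regulator of adult heart, measured 4.55, 4.53 and 4.46 FPKM against 12.5, 14.3 and 14.0 FPKM.

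Several further genes at the top of the ranking belong to none of these lists. Igsf23, an immunoglobulin-superfamily protein, measured 72.8, 57.8 and 70.4 FPKM in CnATg and 0.350, 0.534 and 0.699 FPKM in WT (5.47). Leprel1, a prolyl hydroxylase that modifies collagen, measured 57.1, 51.1 and 53.9 FPKM against 0.974, 1.03 and 0.913 FPKM, 55.6-fold higher. Ptgfr, the prostaglandin F receptor, measured 18.5, 23.3 and 21.6 FPKM against 1.12, 1.85 and 0.579 FPKM, 17.9-fold higher. None of these 3 reached 2 FPKM in a WT library, and Igsf23 passed the level filter through CnATg alone and so had to differ. Arid5a, an RNA-binding protein that stabilizes inflammatory messages, measured 57.7, 46.6 and 62.7 FPKM against 3.67, 3.48 and 2.97 FPKM. Abra, an actin-binding activator of SRF signalling, measured 166, 164 and 151 FPKM against 16.4, 15.1 and 16.4 FPKM, 10.1-fold higher. Gbp6, an interferon-inducible GTPase, measured 81.8, 78.3 and 89.0 FPKM against 7.62, 8.83 and 7.78 FPKM. In these 3 the lowest CnATg library was several times the highest WT library. By difference in level rather than in ratio, Gpi1, glucose phosphate isomerase of glycolysis, with 779, 840 and 782 FPKM against 262, 248 and 225 FPKM, and Sorbs2, a scaffold of the Z-disc and intercalated disc, with 549, 506 and 449 FPKM against 134, 148 and 137 FPKM, were among the largest gains. Among genes that fell, Crhr2, the receptor for urocortins, measured 1.96, 2.77 and 2.43 FPKM against 14.5, 12.8 and 14.9 FPKM, and Doc2g measured 22.9, 33.7 and 26.9 FPKM against 153, 122 and 127 FPKM. The potassium channel subunit Kcne1 (-3.26), the synaptic adhesion protein Lrrc4b (-3.19) and the endocytic adaptor Epn3 (-3.19) fell further still.

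The same genotype difference was measured again in the JIB-04 libraries, which share no library with the vehicle groups though both entered 1 fit. There, 5050 genes passed the test (39.5%), 2692 higher (21%) and 2358 lower (18.4%). Of the 5156 genes called under vehicle, 4059 (78.7%) were called in the same direction under JIB-04, and 79 had the opposite sign. Of the 728 genes changed at least 2-fold, 703 (96.6%) were called again in the same direction and 6 had the opposite sign. The difference between the vehicle and the JIB-04 genotype effect passed the test in 1 gene (0.00781%), the pseudogene Gm11382. That gene passed the level filter, which used the vehicle libraries, only through the CnATg vehicle libraries where it is high, so its p is not independent of the filter. At an unadjusted p of 0.05, 477 genes (3.73%) passed. A missed test does not show that the effects were equal. Over genes, the 95% confidence interval of a vehicle difference had a median reach of 0.22 in log2 units each way, as wide as the median difference itself. The difference between the vehicle and JIB-04 effects carries the spread of both, so its own interval is wider than that.

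**Figure D5:**
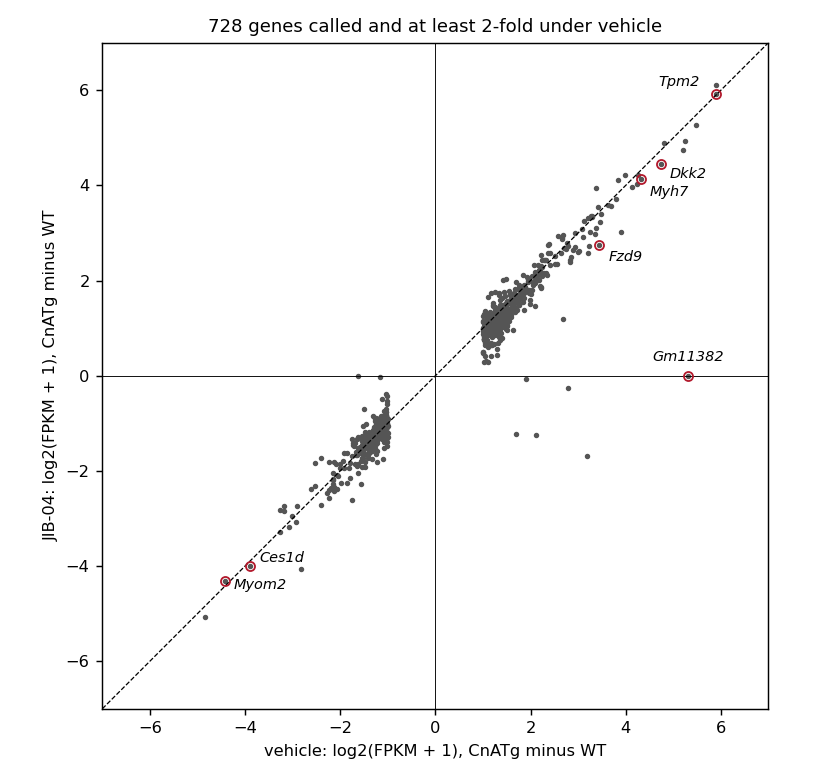
For the 728 genes called and changed at least 2-fold under vehicle, the log2 difference CnATg minus WT under vehicle is on the horizontal axis and that under JIB-04 on the vertical axis, with the line of equal differences. Most points lie near the line, and Gm11382, at 5.31 against 0, stands off it.

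Levels in the other groups of the study put these differences in context. The study has no day-77 WT group under vehicle, only a day-77 WT group under JIB-04. Day-77 levels are therefore given as a description without a test. Bdh1 measured 337 ± 11.1 FPKM (SD, n = 3) in the CnATg vehicle group at day 45 and 298 ± 37.9 FPKM (SD, n = 4) at day 77. It measured 340.3 ± 15.7 FPKM in CnATg under JIB-04 at day 45, and 38.0 ± 4.89 FPKM and 34.9 ± 4.51 FPKM in WT at day 45 under vehicle and JIB-04. Gpx3 measured 655 ± 19.2 FPKM in CnATg vehicle at day 45 and 751 ± 49.9 FPKM at day 77, and 75.9 ± 2.16 FPKM in WT vehicle at day 45. Myot measured 105 ± 16.0 FPKM in CnATg vehicle at day 45 and 122 ± 16.7 FPKM at day 77, against 7.57 ± 1.06 FPKM in WT vehicle. In these 3 genes the CnATg groups at both ages lay on the same side of the day-45 WT groups.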

How the data were processed

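Per the labels' protocols, Trizol was used for extraction and a non-directional kit for mRNA libraries, so overlapping and antisense genes cannot be told apart. STAR 2.7.1a, Picard, GATK 4.1.2, Cufflinks 2.2.1 and the GRCm38 genome are named in the submitters' processing notes. The annotation, the filters and the role of each step are not given in the sources used here. Per the file headers, the values the authors deposited are log2 FPKM. The values held exact zeros and none below 0, so they were read as log2(FPKM + 1), and FPKM was computed back from them. The design written in advance named the same scale.

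Genes were kept where 3 or more of the 6 vehicle libraries of day 45 had an FPKM of 1 or above. Left out were mt-Atp6, mt-Co3 and mt-Atp8, which are mitochondrial genes, and list members that share a symbol with another feature. limma 3.58.1 in R 4.3.3 was fitted by group on the 12 day-45 libraries, which pools the spread of 4 groups of 3, with empirical Bayes, an intensity trend, two-sided tests and Benjamini-Hochberg adjustment, at an adjusted p of 0.05. The fit was tested on simulated data. Library shares were compared with exact permutation tests over samples. The scalings tried, named beside a gene's call where they change it, were median-ratio scaling, quantile normalization and rescaling without mitochondrial and haemoglobin genes. Positions are 1-based on GRCm38, from the files. Promoter sequences are RefSeq's, matched by symbol for 8945 of 12779 tested genes with a unique symbol.

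The absolute depth of a library is unknown. Counting errors and detection limits are therefore not given, and the precision is that of the spread between libraries. The labels name no batch. Replicate numbers were not used as a pairing.

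The members, the gene lists and the rule for named genes were chosen with earlier results of these data known. The rule took, in each direction, the top 30 called genes by log2 difference that had no overlap and a mean of 2 FPKM or more in the higher group, the top 15 by difference in FPKM, the marker genes Ppp3ca, Myh7, Tpm2 and Myom2, and of each list up to 5 called members each way and members on which a sentence turns. Predicted genes and pseudogenes were left out, apart from genes called in the test between the vehicle and JIB-04 effects. Genes shown in full were picked from these.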

Additional observations from a re-analysis of the deposited data

Results flagged for a closer look

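The genotype difference under vehicle and that under JIB-04 differed in 1 gene by the test of the difference itself. Gm11382, annotated as a pseudogene at chr13:32938524-32938691 (GRCm38), measured 36.1, 54.3 and 29.8 FPKM in the CnATg vehicle libraries and was listed at 0 in all 3 WT vehicle libraries and in the 6 JIB-04 libraries of day 45. The difference between the effects was 5.31 on the log2 scale (adjusted p = 8.92e-07, limma). The level filter used the vehicle libraries alone, and the gene passed it only through the 3 CnATg vehicle libraries, so this p is not independent of the filter. No gene passed this test without any 1 of the CnATg vehicle replicates, 2 genes passed without WT replicate 1 or without WT replicate 2, and 1 passed without WT replicate 3. The locus is short and the depth unknown, and a value of exactly 0 may be a failed estimate.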

How the results depend on the processing

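Of the values checked under other settings, the number of genes called stayed within 1.5 times of 5156 in each setting run: 5126 with median-ratio scaling, 5120 with quantile normalization, 5119 with a pseudocount of 0.1, 5180 with no level filter, 3901 with a minimum of 5 FPKM and 4590 in a fit on the 6 vehicle libraries alone. With mitochondrial and haemoglobin genes left out before rescaling, 4834 genes were called and the lower calls moved from 2090 to 1280, while the higher calls moved from 3066 to 3554. Leaving out each library in turn gave 3983 to 4594 calls, with 2203 to 2958 higher, 1636 to 1854 lower and 591 to 687 at least 2-fold. The fewest calls came without CnATg replicate 1. Genes that differed between the vehicle and JIB-04 effects numbered 0 to 2 in these fits. The difference in mitochondrial share stayed between -8.27 and -8.84 percentage points. Same-numbered libraries of the groups deviated together by correlations of -0.03, 0.08 and 0.02, and differently numbered ones by -0.114 to 0.108. With 3 libraries in each group these values cannot settle whether the numbers pair the samples, and no label says that they do. A fit with the replicate block called 4138 genes, 739 of them at least 2-fold. Myl4 kept a difference of 1.77 without CnATg replicate 1 but not its call (adjusted p = 0.056). Some genes that did not pass the test changed sign. Under median-ratio scaling the log2 difference was -0.032 for Actc1, -0.055 for Adrb1, -0.0071 for Ppp3cb, -0.0019 for Ppp3r1 and -0.019 for Ryr2. Under quantile normalization it was -0.063 for Adrb1, -0.043 for Ppp3cb, -0.040 for Ppp3r1, -0.023 for Ryr2 and 0.30 for Tnnt2. With mitochondrial and haemoglobin genes left out it was 0.054 for Dsp, 0.023 for Tnnt2, 0.038 for Trim63 and 0.029 for Utrn. Leaving out each library gave ranges of -0.024 to 0.085 for Actc1, -0.032 to 0.062 for Adrb1, -0.15 to 0.029 for Dsp, -0.053 to 0.16 for Ryr2, -0.0092 to 0.18 for Tgfbr1, -0.13 to 0.040 for Trim63 and -0.11 to 0.0087 for Utrn. Apart from Tnnt2 under quantile normalization, none of these passed the threshold, and the cause was not tested. Myl2, called lower, had a difference of 0.139 under quantile normalization that did not pass (adjusted p = 0.155), and the cause was not tested. Depth per library is not known, so what it limits cannot be given beyond the spread between libraries.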

Other observations

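Some further gene groups, described here with their counts against 24% higher and 16.3% lower over all genes, were not covered above. Of 36 tested genes of mitochondrial dynamics, import and turnover, 8 were called higher and 10 lower, or 2 lower with mitochondrial and haemoglobin genes left out. Micu2, which gates calcium entry into mitochondria, measured 78.6, 79.4 and 79.6 FPKM in CnATg and 39.3, 37.5 and 39.2 FPKM in WT (1.02 ± 0.06 (SE), adjusted p = 1.8e-07, limma). Bnip3, a receptor for removal of mitochondria, measured 169, 178 and 155 FPKM against 77.6, 91.9 and 83.7 FPKM, and Mfn1, which fuses their outer membranes, fell by 0.48. Of 27 tested cell death genes, 7 were called higher and 6 lower, with 2 to 11 lower over the settings tried. Tnfrsf12a, the receptor for the cytokine TWEAK, measured 139, 150 and 155 FPKM against 59.8, 26.3 and 49.1 FPKM, and the death inhibitor Bcl2 rose by 0.94. Gadd45a, a growth arrest gene, measured 6.31, 6.50 and 6.25 FPKM against 18.9, 16.9 and 20.8 FPKM. The groups did not overlap in these genes.

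Immune genes were called in both directions, at shares near the 24% higher and 16.3% lower over all genes. Of 26 tested complement and antigen presentation genes, 5 were called higher and 4 lower, with 1 to 8 lower over the settings tried with 1 lower without WT replicate 3 or CnATg replicate 3 and 2 lower without CnATg replicate 1. Serping1, the inhibitor of the first complement step, measured 103, 87.1 and 82.2 FPKM in CnATg and 53.2, 49.6 and 50.9 FPKM in WT (0.81). Chemokines and cytokines had 24 tested genes, of which 5 were called higher and 5 lower, with 2 higher without CnATg replicate 1, 3 higher without CnATg replicate 3 or under quantile normalization, 2 lower without WT replicate 1, and 3 lower without WT replicate 3 or with mitochondrial and haemoglobin genes left out. Ccl21a, a chemokine that draws lymphocytes and dendritic cells, measured 55.6, 52.2 and 46.6 FPKM against 20.3, 20.1 and 22.0 FPKM, and Il15, a lymphocyte growth factor, measured 3.13, 3.31 and 3.05 FPKM against 9.57, 8.90 and 9.97 FPKM. Both lay apart between the groups. Cdkn1c, an inhibitor of the cell cycle, fell by 1.25.

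The gene with the largest fall was a predicted antisense gene, named here after its values were seen. Gm15543, at chr6:145182275-145187630 (GRCm38), measured 5.77, 5.77 and 3.92 FPKM in CnATg and 195, 128 and 210 FPKM in WT, 34.5-fold lower (-4.84 ± 0.23, adjusted p = 3.3e-08, limma). Under JIB-04 its genotype difference was -5.06. It lies within the locus of Casc1 on the other strand, which measured 0.0346, 0.0996 and 0.136 FPKM against 2.14, 2.29 and 2.27 FPKM. The libraries do not keep strand, so reads of these 2 genes cannot be told apart.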
